A study of Homo sapiens with 6 samples.

Results

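The comparison described here sets a prostate cancer cell line made to overexpress miR-338-5p directly against the same line made to overexpress miR-421. All 6 arrays of the series enter it, 3 for each miRNA line. Both are derivatives of 22RV1, an established prostate cancer line of human origin, labelled as positive for SPINK1, a secreted trypsin inhibitor. Stable lines were made with the lentiviral vectors pLemiR-338-5p, pLemiR-421 and, as control, pLemiR-RFP, and all of them, the control included, were kept in RPMI medium with fetal bovine serum, penicillin and streptomycin, and puromycin at 1 µg/mL. The miR-338-5p line had replicates 1, 2 and 3. The miR-421 line had a sample named as a pool and replicates 1 and 2. What the pool held, and what the letter C in the other sample names stands for, is not given in the sources used here, so p-values measure only the spread among these samples, which may be technical. On every array the control RNA carried the dye Cy3 and the RNA of the miRNA line carried Cy5, with no dye swap. A value below is the log2 ratio of the miRNA line over control, and a difference is the mean of the 3 miR-338-5p arrays minus the mean of the 3 miR-421 arrays, so that a negative difference is a higher level in the miR-421 line.

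MicroRNAs are short RNAs that load into Argonaute proteins and pair, mainly through a stretch near their 5′ end called the seed, with sites in messenger RNAs, most often in the 3′ untranslated region. Pairing lowers the stability or the translation of the target. Beyond direct targets, a line that overexpresses a miRNA over many passages also carries the changes downstream of those targets, and the 2 lines were compared here without separating these.

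The mature miRNAs are shown because the seeds decide which messages each can pair with. The sequences are from RefSeq (GRCh38.p14), and capitals mark the seed, bases 2 to 8.
hsa-miR-338-5p: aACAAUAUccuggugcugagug
hsa-miR-421: aUCAACAGacauuaauugggcgc
The first is encoded on the minus strand at chr17:81125923-81125944 and the other on the minus strand at chrX:74218392-74218414. The seeds carry the same base at 4 of 7 positions and the whole sequences share no run longer than 4 bases, so the seeds differ.

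In Cy3, the control channel, 47.3% to 47.9% of gene spots were well above background on the miR-338-5p arrays and 44.3% to 44.4% on the miR-421 arrays, without overlap, so the reference side differed with the line. Its part in the differences was not tested. In Cy5 the share was between 41.9% (miR-421 replicate 1) and 48.3%. Across probes, the log2 ratios of array pairs had correlations of 0.478 to 0.613 within the miR-338-5p line, of 0.637 to 0.823 within the miR-421 line and of 0.338 to 0.594 between the lines. The 12 prostate epithelial markers, among them KLK3 and HOXB13, were above background in Cy5 on every array, with a summed background-corrected intensity of 45220 to 59066 in the miR-338-5p line and 40789 to 81098 in the miR-421 line. Of 8 fibroblast markers COL1A2, COL3A1, PDGFRA and THY1 were above background on 0 arrays, COL1A1 was above it on 6, the proteoglycans DCN and LUM on 5 each and PDGFRB on 2. The list summed to 464 to 879 and 658 to 1765, and LUM alone was at 57 to 359 in the miR-338-5p line and 216 to 867 in the miR-421 line. The 4 leukocyte and 3 kidney markers measured were above background on all 6 arrays at low signal. They summed to 342 to 393 and 357 to 511 for leukocytes and to 350 to 468 and 241 to 290 for kidney, sums in which the correction adds 50 to each gene. The part of these markers in the differences was not tested. In RNA from whole cultures, fewer cells of a kind and less RNA per cell cannot be told apart.

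The lines were separated most firmly by a small and varied set of genes. Limma's test of the difference passed its threshold (adjusted p under 0.05) at 13 of 27492 probes, which is 0.0473%. The miR-421 line was higher at 10 of them and the miR-338-5p line at 3. They belonged to an extracellular superoxide dismutase, a tyrosine phosphatase, an assembly factor of the proton pump, a microtubule-binding protein, keratins, a NODAL co-receptor, a calcineurin subunit and a COMMD protein. The number rests on all 6 arrays: it was 1 without miR-338-5p replicate 1, 4 without replicate 2, 0 without replicate 3, 0 without the miR-421 pool, 1 without miR-421 replicate 1 and 0 without miR-421 replicate 2. Only 1 of the probes that passed with an array left out, without miR-338-5p replicate 2, was among the 13.

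SOD3, the secreted superoxide dismutase that binds to the cell surface and matrix, had log2 ratios of 0.22, -0.02 and 0.03 on the miR-338-5p arrays and 2.09, 2.54 and 2.42 on the miR-421 arrays. It stood at the control level in one line and well above it in the other, with no overlap, and differed by -2.27 ± 0.14 (SE; limma adjusted p 0.0303). The control channel was not level at this probe. Cy3 was 1.03 lower on the miR-338-5p arrays on the log2 scale (a Cy3 difference of -1.03) and Cy5 differed by -3.30, and the part of the Cy3 signal in the ratio was not tested.

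PTPN18, a cytoplasmic tyrosine phosphatase that acts on HER2, had ratios of -0.12, -0.48 and -0.67 in the miR-338-5p line and 1.62, 2.05 and 2.09 in the miR-421 line, a difference of -2.34 ± 0.19 (SE; limma adjusted p 0.044). A brighter second probe of the gene also kept the arrays apart, at 0.48, 0.09 and 0.21 against 1.71, 2.29 and 1.71 (-1.65; adjusted p 0.0688). Both probes placed the miR-421 line above control. The Cy3 signal of the first differed by -0.36 between the lines.

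VMA22, which the array names CCDC115, helps assemble the V-ATPase, the pump that acidifies lysosomes. Its ratios were -0.83, -0.42 and -0.86 in the miR-338-5p line and 0.84, 0.97 and 0.99 in the miR-421 line, so the lines lay on opposite sides of control, with a difference of -1.63 ± 0.14 (SE; limma adjusted p 0.044). A second, dimmer probe gave -0.98 (adjusted p 0.1). MAP7D1, a microtubule-associated protein, was at 0.08, -0.10 and 0.05 against 1.04, 1.24 and 1.28, a difference of -1.18 ± 0.10 (SE; adjusted p 0.044), and its other probe differed by -0.81 (adjusted p 0.0688).

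Of the 3 probes higher in the miR-338-5p line, CFC1 differed most. CFC1 (also called Cryptic) is a membrane-bound co-receptor for NODAL in early embryonic patterning. Its ratios were -0.27, 0.28 and 0.15 in the miR-338-5p line and -2.98, -2.77 and -3.21 in the miR-421 line, where the signal was 12.6% of control. The Cy5 mean in the miR-421 line was low (6.47, log2), where the 50 added by the correction narrows the ratio. The arrays did not overlap and the difference was 3.04 ± 0.18 (SE; limma adjusted p 0.0303).

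PPP3CA, the catalytic alpha subunit of the calcium-activated phosphatase calcineurin, had ratios of -0.20, -0.37 and 0.33 against -2.22, -2.32 and -2.34, a signal of 20.4% of control in the miR-421 line. The difference was 2.21 ± 0.18 (SE; limma adjusted p 0.044). Of the 16 calcineurin and NFAT genes tested, PPP3CA was the only one that passed the test or stood apart by 1.5-fold, and the median of the list was 0.07. COMMD3, one of a family of proteins that bind copper-handling and endosomal sorting factors, was at 0.27, 0.28 and 0.35 against -1.01, -1.05 and -0.88, a difference of 1.28 ± 0.08 (SE; adjusted p 0.0303). For these genes the miR-338-5p line was near the control level and the miR-421 line below it.

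**Figure D1:**
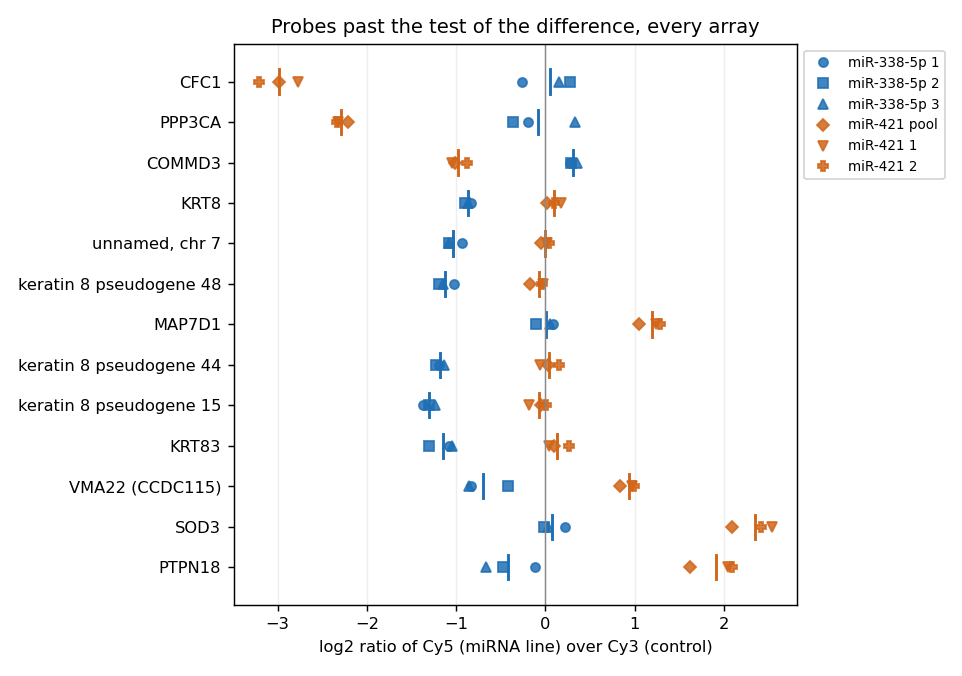
Log2 ratio of the miRNA line (Cy5) over control (Cy3) on every array for the 13 probes that passed limma's test of the difference, with a vertical mark at each line's mean; blue symbols are the 3 miR-338-5p arrays and orange symbols the 3 miR-421 arrays. In every row the symbols of one line lie on one side of those of the other, from CFC1 (difference 3.04) at the top to PTPN18 (difference -2.34) at the bottom.

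The largest functional group among the 13 probes was keratin. Keratins 8 and 18 pair to form the intermediate filaments of simple epithelia, the cells that line glands such as the prostate. KRT8, 3 processed copies of it (pseudogenes 15, 44 and 48) and the hair keratin KRT83 all passed the test and were all higher in the miR-421 line. Processed copies of keratin genes are close to identical in sequence, so which copy a pseudogene probe reads is uncertain. These 5 probes are therefore reported as keratin signal and not as 5 genes.

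The sequence of the KRT8 probe that passed, from the deposited array files with its hg19 coordinates (minus strand), is shown because it decides which keratin RNA the signal can come from.
KRT8 (chr12:53294461-53294995): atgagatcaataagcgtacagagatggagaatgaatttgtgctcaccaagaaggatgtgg
The KRT8 and KRT83 probes have no run longer than 9 bases in common with any other keratin 8 probe, so their sequences differ from those probes. Probes were compared only with one another and not with transcripts, so reading of other keratin RNAs by these probes was not tested. The interval given for the KRT8 probe is longer than the probe itself.

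The KRT8 probe had ratios of -0.84, -0.90 and -0.86 in the miR-338-5p line and 0.02, 0.17 and 0.10 in the miR-421 line, a difference of -0.96 ± 0.08 (SE; limma adjusted p 0.044). The miR-338-5p arrays were at 54.8% of control and the miR-421 arrays near it. Its brightest probe, in another part of the gene, was at -1.28, -1.40 and -1.25 against -0.21, -0.51 and -0.13 (-1.03; adjusted p 0.0688). Another KRT8 probe, described on the array as transcript variant 4, differed by -0.21 with overlapping arrays. KRT83 differed by -1.28 (adjusted p 0.044), pseudogene 15 by -1.23 and pseudogene 44 by -1.22 (adjusted p 0.0355 each), pseudogene 48 by -1.05 (adjusted p 0.044) and pseudogene 37 by -1.30 (adjusted p 0.0656). The unnamed probe of the 13, on chromosome 7, had like values, at -0.94, -1.08 and -1.08 against -0.05, 0.01 and 0.04 (-1.03; adjusted p 0.044).

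Keratin 18 was higher in the miR-421 line as well, without passing the test. The KRT18 probe was at 0.28, -0.34 and -0.25 against 1.00, 0.63 and 1.27, a difference of -1.07 (limma adjusted p 0.16). This probe's Cy3 signal was 0.53 higher and its Cy5 signal 0.54 lower on the miR-338-5p arrays (a Cy5 difference of -0.54), and the part of the control channel was not tested. A second KRT18 probe was at -0.03, -0.41 and -0.45 against 0.87, 0.58 and 0.79, a difference of -1.04 (adjusted p 0.0812) that was -0.94 in Cy5 and 0.11 in Cy3. Of 13 keratin 18 probes, pseudogene probes included, 12 stood apart between the lines, 0 passed the test, and their median difference was -1.1. Of 7 keratin 8 probes 6 stood apart, 4 passed, and the median difference was -1.05. The families differed in where control lay: the keratin 8 probes had a median ratio of -1.19 in the miR-338-5p line and -0.08 in the miR-421 line, and the keratin 18 probes -0.32 and 0.75. KRT19 (0.67; adjusted p 0.714) and KRT7 (-0.31; adjusted p 0.503), other keratins of simple epithelia, had overlapping arrays.

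**Figure D2:**
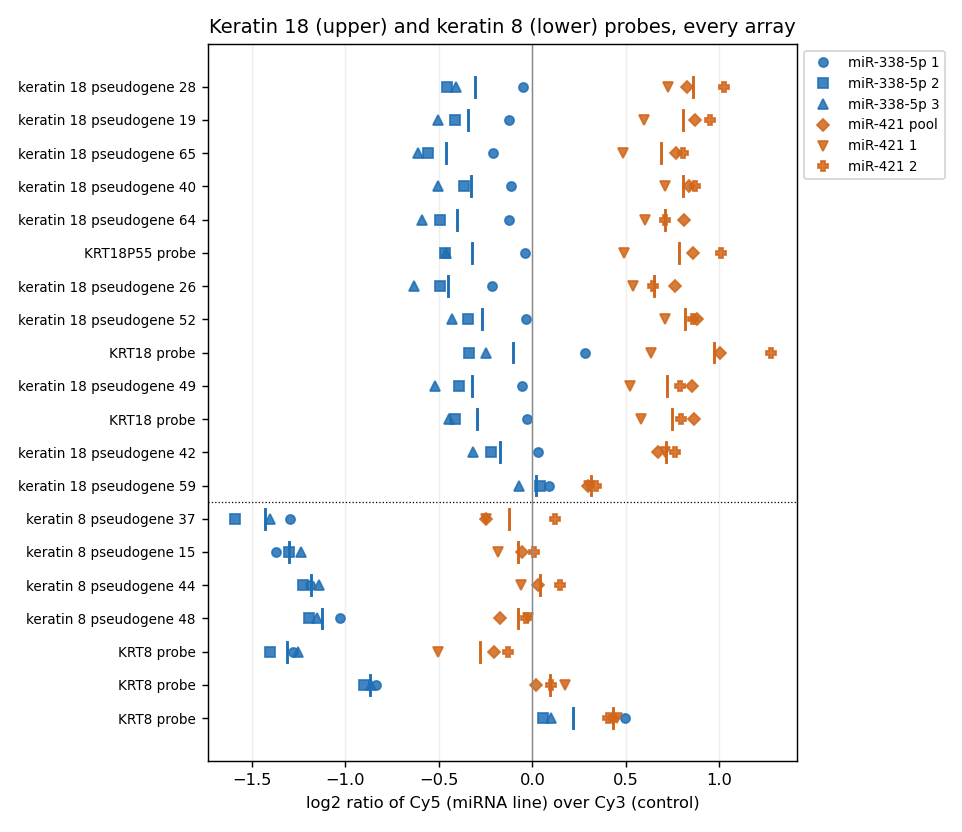
Log2 ratio over control on every array for the 13 keratin 18 probes (above the dotted line) and the 7 keratin 8 probes (below it), with a vertical mark at each line's mean; blue symbols are miR-338-5p arrays and orange symbols miR-421 arrays. The lines lie about equally far apart in both families (median differences -1.1 and -1.05), and the lowest keratin 8 probe, for transcript variant 4, shows overlapping arrays.

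Beyond single probes, 15957 genes were compared, each by its brightest probe. A gene is called separated below where all 3 arrays of one line lay above all 3 of the other and the means differed by at least 1.5-fold, which is a description and not a test. The miR-338-5p line was higher for 484 separated genes (3.03% of those tested) and the miR-421 line for 441 (2.76%), and 6 genes passed the adjusted test. The 484 became 897 without miR-338-5p replicate 3 and 766 without the miR-421 pool, and the 441 became 739 without that pool. With median centring in place of loess the split became 280 and 770. The median difference over all genes was 0.02, with quartiles at -0.14 and 0.20. Gene lists are read against these figures, and no list was tested as a set.

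**Figure D3:**
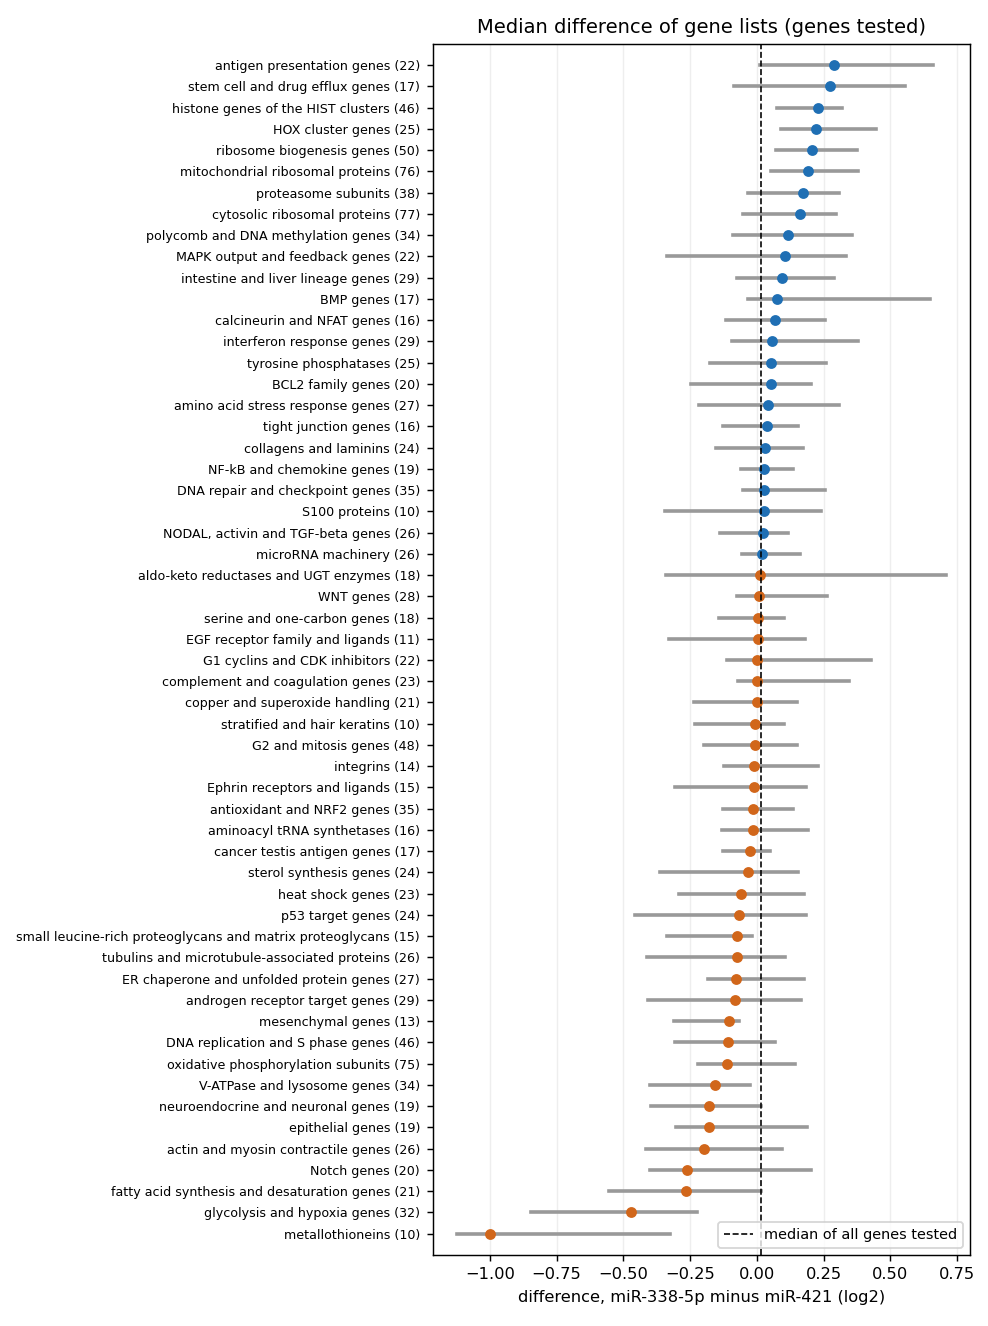
Median difference (dot) and the range between quartiles (bar) of the gene lists with at least 10 genes tested, with the number tested in brackets; blue dots lie above and orange dots below the median of all genes (dashed line). Metallothioneins (-0.999) and glycolysis and hypoxia genes (-0.47) lie farthest to the side of the miR-421 line, and antigen presentation genes (0.29) farthest to the side of the miR-338-5p line.

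Glycolysis and hypoxia genes had differences mostly on the side of the miR-421 line. Glycolysis converts glucose to pyruvate and lactate, and its enzymes are induced together with other targets by the hypoxia-inducible factors. Of 32 glycolysis and hypoxia genes tested, 30 had a negative difference, against 46.9% of all genes, 12 (37.5%) were separated with the miR-421 line higher and 0 with the miR-338-5p line higher. The median difference was -0.47. The list medians on the arrays were -0.21, -0.34 and -0.15 for the miR-338-5p line and 0.29, 0.29 and 0.29 for the miR-421 line, so the lines lay on either side of control. No member passed the adjusted test (0 of 32).

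The separated members ran from the top of the pathway to its end. HK1, the hexokinase that traps glucose in the cell, had ratios of -0.13, -0.41 and 0.41 against 0.70, 0.73 and 1.31 (-0.96; limma adjusted p 0.223). PFKP, the platelet form of phosphofructokinase, which commits sugar to glycolysis, had the largest difference, at -0.89, 1.09 and -0.84 against 1.41, 1.19 and 1.47 (-1.57; adjusted p 0.295). Its miR-338-5p replicate 2 lay close to the miR-421 arrays and the other replicates far below. ALDOA, which splits the sugar, was at -0.58, -0.25 and 0.01 against 0.62, 0.71 and 0.57 (-0.91; adjusted p 0.118). PGK1, which makes the first ATP of the pathway, was at -0.44, -0.79 and -0.11 against 0.72, 0.43 and 0.75 (-1.08; adjusted p 0.123).

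ENO1, the enolase, came nearest to the threshold, at -0.81, -0.65 and -0.67 against 0.01, 0.12 and 0.26 (-0.84; limma adjusted p 0.0688). PKM, the pyruvate kinase, differed by -0.94, LDHA, which makes lactate, by -0.71, GAPDH by -0.64 and PGAM1 by -0.61, with adjusted p between 0.123 and 0.313. Among hypoxia-responsive genes outside the pathway, NDRG1, a stress-response gene, differed by -1.45, the secreted lipase inhibitor ANGPTL4 by -1.03 and the mitophagy receptor BNIP3 by -0.85. Not every hypoxia gene followed. VEGFA, the vascular growth factor, was above control in both lines (0.90, 0.88 and 1.02 against 0.93, 0.88 and 0.63; difference 0.12), the demethylase KDM3A differed by 0.22, and the glucose transporter SLC2A1 by -0.08 with overlapping arrays.

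The promoter of PGK1 is shown because several of these genes are textbook targets of the hypoxia-inducible factors, which bind the core letters ACGTG or GCGTG. It spans the 250 bases before the gene start on the plus strand (RefSeq, GRCh38.p14, chrX:78103998-78104247), and capitals mark the core on either strand.
PGK1 promoter: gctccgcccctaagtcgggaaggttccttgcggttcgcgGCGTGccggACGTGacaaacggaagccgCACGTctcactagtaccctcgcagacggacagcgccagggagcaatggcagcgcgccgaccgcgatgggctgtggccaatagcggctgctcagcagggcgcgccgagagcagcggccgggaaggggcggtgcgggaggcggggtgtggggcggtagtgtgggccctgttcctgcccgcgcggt
Of the 29 list members with a promoter in the table, 18 (62.1%) held at least 1 core and 6 (20.7%) held 3 or more, against 43.1% and 7.89% of 27305 promoters. The promoters of PFKP, HK1, PKM and PGAM1, which were also separated, held 0. The letters CACGTG count on both strands. A match describes letters and is no bound site. The list was drawn up with known targets of these factors in it, so its share of cores is no result of these arrays.

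Metabolic lists around glycolysis differed less. Of 21 genes of fatty acid synthesis and desaturation, 15 had a negative difference and 2 were separated, with a median of -0.26 that became -0.10 without miR-421 replicate 2, and -0.16 without miR-338-5p replicate 2. The 2 separated genes became 7 without miR-421 replicate 1 and 4 without miR-338-5p replicate 3. SCD, the desaturase that makes monounsaturated fat, was at -0.16, -1.32 and -1.17 against 1.30, -0.13 and 1.21 (-1.68; limma adjusted p 0.237), and ACSL1, which activates fatty acids, at 0.17, -0.65 and 0.79 against 1.31, 1.32 and 1.32 (-1.22; adjusted p 0.232). FASN, the synthase itself, differed by -0.98 with overlapping arrays. In the serine and one-carbon list, 2 of 18 genes were separated: the glutamine transporter SLC1A5 (-1.49) and PHGDH, the first enzyme of serine synthesis (-1.08), while the median of the list was 0.01. Of 75 oxidative phosphorylation subunits 1 was separated (the ATP synthase subunit ATP5F1B, -0.60), and the median was -0.11. This median was -0.31 with median centring and 0.04 in the Cy5 channel alone.

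PDK4, the kinase that keeps pyruvate out of the mitochondrial cycle, ran the other way. Its ratios were -1.20, -1.1 and 0.28 in the miR-338-5p line and -3.58, -3.04 and -3.77 in the miR-421 line, where the signal was 9.06% of control. The difference was 2.79 ± 0.43 (SE; limma adjusted p 0.1). Among separated genes higher in the miR-338-5p line with an unadjusted limma p under 0.05, LOC, LINC and clone names left out, it was the fourth largest.

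Metallothioneins had the lowest median of all lists and families. They are small cysteine-rich proteins that bind zinc and copper and are induced by metals, oxidants and glucocorticoids. Of 10 tested, 9 had a negative difference, 5 were separated with the miR-421 line higher and 0 the other way, and the median difference was -0.999. The array medians were 0.04, -0.58 and 0.39 in the miR-338-5p line and 0.75, 0.93 and 0.87 in the miR-421 line. Without miR-338-5p replicate 2, the lowest array, the median became -0.64 and 5 members were still separated.

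MT2A, the most abundant signal of the list, had ratios of 0.16, -1.13 and 0.63 against 1.13, 1.01 and 1.01 (-1.16; limma adjusted p 0.33), with Cy3 0.41 higher on the miR-338-5p arrays. MT1E differed by -1.13, MT1B by -1.11 and MT1L by -1.11, each with replicate 2 of the miR-338-5p line at about -1 and the miR-421 arrays near 1. MT3, the brain-type member, was at -0.23, -0.24 and -0.11 against 0.58, 0.58 and 0.93 (-0.89; adjusted p 0.0776). MT1M (-1.17) had overlapping arrays, MT1A differed by -0.38, MT1G by -0.31 and MT1X by -0.12, and the dim MT1F by 0.08. The genes are close copies: 6 of the 45 pairs of their probes had a run of at least 15 bases in common, the longest of 19, so their values are not independent.

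The MT2A promoter is shown because metallothionein genes carry metal response elements, whose core is TGCACNC or TGCGCNC and which the zinc sensor MTF1 binds. It spans the 250 bases before the gene start on the plus strand (RefSeq, GRCh38.p14, chr16:56608334-56608583), with the core on either strand in capitals.
MT2A promoter: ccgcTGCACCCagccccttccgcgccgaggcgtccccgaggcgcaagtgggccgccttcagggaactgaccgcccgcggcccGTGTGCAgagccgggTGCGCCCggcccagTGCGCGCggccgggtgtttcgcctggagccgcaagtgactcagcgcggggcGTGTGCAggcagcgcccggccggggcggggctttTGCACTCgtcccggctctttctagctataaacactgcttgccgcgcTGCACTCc
It holds 7 matches. Of 27305 promoters 24.7% held at least 1 and 1.56% held 3 or more, while all 3 metallothionein promoters in the table (MT2A, MT1B with 3 and MT1X with 4) held 3 or more. MT1X, with 4 matches, differed by -0.12. Metallothionein genes are known for these elements, so the matches are no result of these arrays.

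The other redox and metal genes had medians near that of all genes. The 35 antioxidant and NRF2 genes had a median of -0.01, with 1 separated, the mitochondrial thioredoxin reductase TXNRD2 (-0.79; limma adjusted p 0.0895). The 21 genes of copper and superoxide handling had a median of 0.00 and held both SOD3 and COMMD3, which passed in opposite directions. COMMD8 (1.03; adjusted p 0.145) was separated in the direction of COMMD3. SLC39A8, a zinc and manganese importer, was at -0.08, 0.19 and 0.33 against -1.64, -1.61 and -2.16, a difference of 1.95 ± 0.19 (SE; adjusted p 0.056). It was at the control level in the miR-338-5p line and at 28.6% of control in the miR-421 line.

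**Figure D4:**
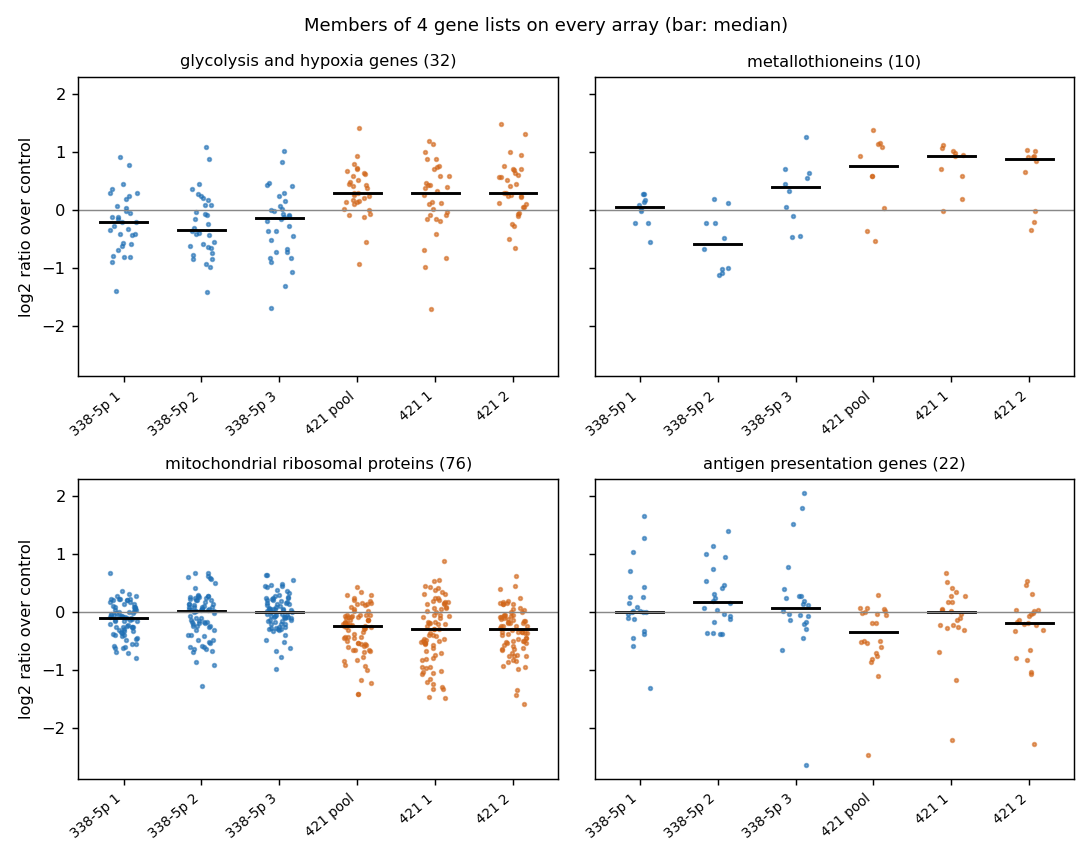
Log2 ratio over control of every tested member of 4 gene lists on each array (points), with the list's median on that array as a black bar; blue points are miR-338-5p arrays and orange points miR-421 arrays. The glycolysis medians lie below 0 on the miR-338-5p arrays and at 0.29 on the miR-421 arrays, the metallothionein median is lowest on miR-338-5p replicate 2 (-0.58), and the mitochondrial ribosomal medians lie lower on the miR-421 arrays.

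Translation and protein turnover genes leaned to the miR-338-5p line. Mitochondrial ribosomal proteins build the ribosome that makes the respiratory subunits encoded in mitochondria. Of 76 tested, 66 had a positive difference, against 53.1% of all genes, and 13 (17.1%) were separated with the miR-338-5p line higher and 0 with the miR-421 line higher. The median difference was 0.19, or 0.08 with median centring, where 8 and 1 were separated, and 0.12 without miR-338-5p replicate 3. No member passed the adjusted test (0 of 76).

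MRPL3 of the large subunit was at -0.10, 0.24 and -0.33 against -1.22, -1.46 and -1.42 (1.30; limma adjusted p 0.072). MRPL13 differed by 1.1, MRPL47 by 1.08, MRPL50 by 0.84 (adjusted p 0.0812) and MRPL15 by 0.81, and of the small subunit MRPS6 by 0.74 and MRPS17 by 0.68 (adjusted p 0.0842). For MRPL3, MRPL13 and MRPL47 the miR-421 arrays lay between 38.7% and 53.3% of control on average and the miR-338-5p arrays near control. Related assembly genes leaned the same way: the NDUFAF family, which assembles respiratory complex I, had the highest median of 287 families of at least 8 genes (0.46, with 7 of 8 positive), led by NDUFAF4 (0.86; adjusted p 0.0737).

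The proteasome degrades tagged proteins. Of its 38 subunits 28 had a positive difference and 3 were separated, all higher in the miR-338-5p line: PSMA3 (-0.31, 0.34 and -0.64 against -1.36, -1.31 and -1.53; 1.20; limma adjusted p 0.153), PSMA4 (0.78) and PSMC6 (0.77). The median of 0.17 became 0.03 with median centring. Of 50 ribosome biogenesis genes 40 had a positive difference, with a median of 0.21 that became 0.04 without miR-421 replicate 1, and 3 were separated with the miR-338-5p line higher. Their number was 0 without that array and 5 without miR-338-5p replicate 1, without its replicate 2 or without miR-421 replicate 2, and 7 without the pool. IMP4, a nucleolar processing factor, was the 1 separated in the other direction (-0.82; adjusted p 0.0776).

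Cytosolic ribosomal proteins had a median of 0.16 over 77 genes, -0.12 with median centring and 0.04 without miR-338-5p replicate 2, so their direction depends on the scaling. Of these 2 were separated higher in the miR-338-5p line (RPS24, 1.08, and RPL7, 0.88) and 1 higher in the miR-421 line (RPL23, -0.97). Without miR-338-5p replicate 3 the 2 became 9. For RPL23 the Cy3 signal was 0.81 higher on the miR-338-5p arrays and Cy5 differed by -0.16, and the part of the control channel was not tested.

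Of 4 immune lists, antigen presentation genes had the highest median. HLA class I proteins display peptides to T cells, and TAP1 and TAP2 pump those peptides into the endoplasmic reticulum. Of 22 antigen presentation genes 17 had a positive difference, 6 (27.3%) were separated with the miR-338-5p line higher and 0 with the miR-421 line higher, and the median was 0.29. Over the alternatives that change the scaling it was between 0.17 (median centring, where 4 and 1 were separated) and 0.51.

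HLA-B had ratios of 1.66, 1.40 and 2.05 in the miR-338-5p line and -0.51, 0.51 and -0.13 in the miR-421 line, 326% and 97.1% of control (difference 1.75 ± 0.29, SE; limma adjusted p 0.117). HLA-C was at 1.29, 1.14 and 1.79 against -0.75, 0.28 and -0.32 (1.67; adjusted p 0.123), and HLA-G at 1.04, 0.99 and 1.52 against -0.50, 0.28 and -0.30 (1.36; adjusted p 0.123). All 3 were above control on every miR-338-5p array and around it on the miR-421 arrays. HLA-F (0.66), TAP2 (0.77) and TAP1 (0.66) were separated by less.

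Not all class I genes followed. HLA-E differed by 0.20, and the shared light chain B2M by 0.20, below control in both lines. NLRC5, the activator of class I genes, differed by 0.01. HLA class I genes are alike in sequence, and their probes here had no run of over 9 bases in common. These probes were compared only with one another and not with transcripts, so reading of other HLA RNAs by them was not tested. Another probe named for HLA-C has hg19 coordinates that overlap those of the HLA-B probe. HLA-DQB1, a class II chain, was at -0.62, 0.69 and -1.35 against -2.33, -2.18 and -3.02 (2.08; limma adjusted p 0.206). The other, dimmer probes of HLA-DQB1 differed by 0.79 to 1.54 in the same direction. The 29 interferon response genes had a median of 0.06, with 4 separated, all higher in the miR-338-5p line: the antiviral GTPase MX1 (1.01), PARP9 (0.92), and the membrane proteins IFITM2 (0.80) and IFITM3 (0.70). Without miR-338-5p replicate 2 these 4 became 2. Complement and coagulation genes had a median of 0.00 over 23 genes with 1 separated, and NF-kB and chemokine genes 0.03 over 19 with 0 separated, so these lists lay near the median of all genes.

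HOX genes leaned to the miR-338-5p line. They encode the transcription factors that give cells their position along the body axis. Of 25 tested, 22 had a positive difference, 5 were separated and all of these were higher in the miR-338-5p line, with a median of 0.22 that became 0.12 without miR-421 replicate 1, 0.10 without the filter on dim probes and 0.47 with the local background subtracted. HOXA7 was at 0.31, 0.82 and 0.43 against -0.41, -0.94 and -0.71 (1.21; limma adjusted p 0.1) and HOXA9 at 0.58, 0.02 and 0.20 against -0.72, -0.60 and -1.1 (1.07; adjusted p 0.123), each above control in one line and below it in the other. HOXB8 (0.84), HOXA13 (0.73) and HOXB9 (0.65) were the others, and without miR-421 replicate 2 the 5 became 3. HOXB13, the factor that marks prostate, differed by -0.40 with overlapping arrays.

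Polycomb proteins silence HOX and other developmental genes by marking histones. Of 34 polycomb and DNA methylation genes, 3 were separated and all were higher in the miR-338-5p line, with a median of 0.12 that became 0.02 without miR-338-5p replicate 1 or miR-421 replicate 1. The 3 became 6 without miR-338-5p replicate 3 or without the miR-421 pool. BMI1, a subunit of the complex that ubiquitinates H2A, was at 0.37, 0.73 and 0.27 against -0.65, -0.69 and -0.68, a difference of 1.12 ± 0.13 (SE; limma adjusted p 0.0688). A second, dimmer BMI1 probe differed by 0.23 (limma adjusted p 0.293). PHF19 (1.02) and PCGF5 (0.65) were the other separated genes. EZH2, the histone methyltransferase named in the series title, was at -0.08, -0.35 and -0.25 against -0.07, -1.34 and -0.28, with overlapping arrays (0.34; adjusted p 0.71). Without miR-421 replicate 1 its difference was -0.05. Of 46 histone genes 42 had a positive difference and 0 were separated. Their median of 0.23 became 0.06 without miR-338-5p replicate 2, and without replicate 3 the 0 separated became 4.

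The separated genes of the BMP list were mostly its targets. BMP ligands act through SMAD proteins and switch on the ID genes, whose products hold back differentiation. Of 17 BMP genes 4 were separated, all higher in the miR-338-5p line, while the median was 0.08. ID4 was at 0.46, 0.98 and 1.39 against -0.87, -0.85 and -0.41 (1.65; limma adjusted p 0.1), ID2 at 0.42, 0.28 and 0.94 against -0.47, -1.19 and -0.21 (1.16; adjusted p 0.206), and ID1 at 0.61, 0.30 and 0.87 against -0.76, 0.20 and -0.26 (0.86; adjusted p 0.263). ID3 was above control in both lines and differed by 0.08, and SMAD9 differed by 0.65. The list's median was 0.61 with the local background subtracted. Notch genes, which control cell fate between neighbouring cells, had the median farthest from 0 among signalling lists, at -0.26 over 20 genes, with 13 negative differences. Of these genes 2 were separated with the miR-338-5p line higher and 1 with the miR-421 line higher. These became 0 and 6 under median centring, 0 and 0 without miR-338-5p replicate 3, and 1 and 3 without the miR-421 pool.

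CFC1 was the only separated gene of its pathway that was higher in the miR-338-5p line. Of 26 NODAL, activin and TGF-beta genes the median was 0.02, and the other 3 separated members were higher in the miR-421 line: the activin subunit INHBB (-0.93), the activin-binding protein FSTL3 (-0.85) and the NODAL partner GDF1 (-0.61). SMAD4, the common mediator, differed by 0.01 (limma adjusted p 0.997), a value whose sign changed with median centring (-0.09). Among 15 Ephrin receptors and ligands, EPHA3, a guidance receptor, was at 0.93, 2.86 and 1.84 against -0.73, -0.82 and -0.94, above control on every miR-338-5p array and below it on every miR-421 array (2.71 ± 0.46, SE; adjusted p 0.117). EPHA4 (-0.66) and EPHB3 (-0.61) were separated in the other direction. Of 25 tyrosine phosphatases 3 were separated, all higher in the miR-421 line: PTPN18, PTPRN2 (-1.42) and PTPRU (-0.59). Without miR-338-5p replicate 3, 3 other phosphatases were separated with the miR-338-5p line higher.

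The lines also differed in single matrix and cytoskeletal genes. Of 24 collagens and laminins 3 were separated, all higher in the miR-338-5p line, with a median of 0.03. COL9A3, a chain of a fibril-associated collagen, was at 1.33, 1.96 and 1.57 against -0.01, -0.43 and -0.07 (1.79 ± 0.19, SE; limma adjusted p 0.0671). COL5A2 differed by 1.58 and COL6A1 by 1.23. Without miR-338-5p replicate 3 the 3 became 5, and with the local background subtracted 3 others were separated with the miR-421 line higher. FMOD, a small proteoglycan that binds collagen, ran the other way, at 0.16, -0.09 and 0.83 against 2.10, 2.55 and 3.47 (-2.41; adjusted p 0.117).

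VIM, the intermediate filament protein of mesenchymal cells, was at 0.02, 2.39 and -0.17 in the miR-338-5p line and -2.05, -2.08 and -2.67 in the miR-421 line, a difference of 3.02 ± 0.69 (SE; limma adjusted p 0.18). The miR-421 line was at 20.8% of control, and replicate 2 of the miR-338-5p line was far above its other replicates. It was the only separated gene among 13 mesenchymal genes, whose median was -0.11. CDH1, the epithelial adhesion protein, differed by -0.07. Of 26 actin and myosin genes 3 were separated, all higher in the miR-421 line, led by the actin-binding TAGLN2 (-1.25), and of 34 V-ATPase and lysosome genes 3 were: VMA22, the hexosaminidase HEXA (0.19, 0.03 and 0.29 against 0.86, 1.1 and 1.07; -0.84; adjusted p 0.0738) and the protease CTSB (-0.61; adjusted p 0.072). The 3 of the actin list became 5 without miR-421 replicate 1, and the 3 of the lysosome list became 8 without miR-338-5p replicate 3 and 5 without miR-421 replicate 1.

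Cell cycle lists varied with 1 array, and single inhibitors were separated. CDKN1B, which encodes the CDK inhibitor p27, was at 0.77, 0.46 and 0.79 against -0.56, -0.65 and -0.44, above control in one line and below it in the other (1.22 ± 0.12, SE; limma adjusted p 0.0561). CDKN1A, which encodes p21, ran the other way at 0.05, 0.06 and 0.18 against 0.27, 1.25 and 0.68 (-0.64; adjusted p 0.335). The 46 replication and S phase genes had a median of -0.11 with 1 separated, the helicase subunit MCM2 (-0.80), and the 48 G2 and mitosis genes a median of -0.01 with 3 and 2 separated. On miR-421 replicate 1 the medians of these lists were -0.75 and -0.78, against -0.25 to -0.11 on the other miR-421 arrays. Without that array the differences became -0.30 for both lists, and without the pool -0.03 and 0.14. The 26 genes of the microRNA machinery had a median of 0.02 with 0 separated.

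Neighbouring genes were separated together in 7 places, counted as runs of at least 3 consecutive tested genes separated in 1 direction, which hold 27 genes in all. Coordinates are of the probes on hg19. Medians of whole chromosomes lay between -0.06 and 0.10.

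The longest run, on chromosome 4 (chr4:100869240-103183010), held 6 genes higher in the miR-338-5p line. In order these were the histone variant H2AZ1 (0.75), the stress-induced mTOR inhibitor DDIT4L (2.03), PPP3CA (2.21), its divergent transcript PPP3CA-DT (2.50), the B cell adaptor BANK1 and SLC39A8 (1.95). BANK1 was not well above background in Cy5 on any miR-421 array and was at least 1.7-fold higher in the miR-338-5p line, a bound from the Cy5 signals. DDIT4L was at -0.41, 0.18 and 0.25 against -1.90, -2.79 and -1.39 (limma adjusted p 0.133), and PPP3CA-DT at -0.30, 0.02 and 1.29 against -2.23, -2.20 and -2.07 (adjusted p 0.105). Across the run the miR-421 line was below control and the miR-338-5p line near it. The 10 flanking genes had a median of 0.27.

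On chromosome 10 (chr10:22048168-22619636) DNAJC1, COMMD3 and BMI1 formed a run higher in the miR-338-5p line. COMMD3 and BMI1 are direct neighbours. DNAJC1, a membrane co-chaperone of the endoplasmic reticulum, was at 0.60, 0.45 and 1.32 against -0.80, -0.61 and -0.72 (1.5; limma adjusted p 0.1). All 3 were above control on every miR-338-5p array and below it on every miR-421 array.

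On chromosome 17 (chr17:36921974-37077523) 5 genes were higher in the miR-421 line. The lipid kinase PIP4K2B (-0.67), the splicing factor CWC25 (-0.79), RPL23 (-0.97) and the small nucleolar RNA SNORA21 (-1.68; limma adjusted p 0.0776), which lies within RPL23, came before LASP1 (-2.51). In Cy5 alone RPL23 differed by -0.16, against -0.73 for PIP4K2B and -0.80 for CWC25. LASP1, an actin-binding protein of focal adhesions, was at 0.09, -0.45 and -0.74 against 2.07, 1.99 and 2.36, 441% of control in the miR-421 line (adjusted p 0.056). By its definition the run ends at a tested gene that is not separated in that direction, here LASP1NB.

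On chromosome 2 (chr2:131096025-131132140) VMA22, IMP4 and PTPN18 formed a run higher in the miR-421 line. IMP4 was at 0.02, 0.40 and 0.24 against 1.03, 1.03 and 1.04. Beyond PTPN18 the tested genes FAR2P2 (-0.48), CYP4F62P (-0.34) and POTEI (-0.51) had overlapping arrays, and CFC1, the next, was the gene far higher in the miR-338-5p line. Genes of both directions thus lay within one stretch. POTEI and the pseudogenes there have near-identical copies, and their values are uncertain.

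**Figure D5:**
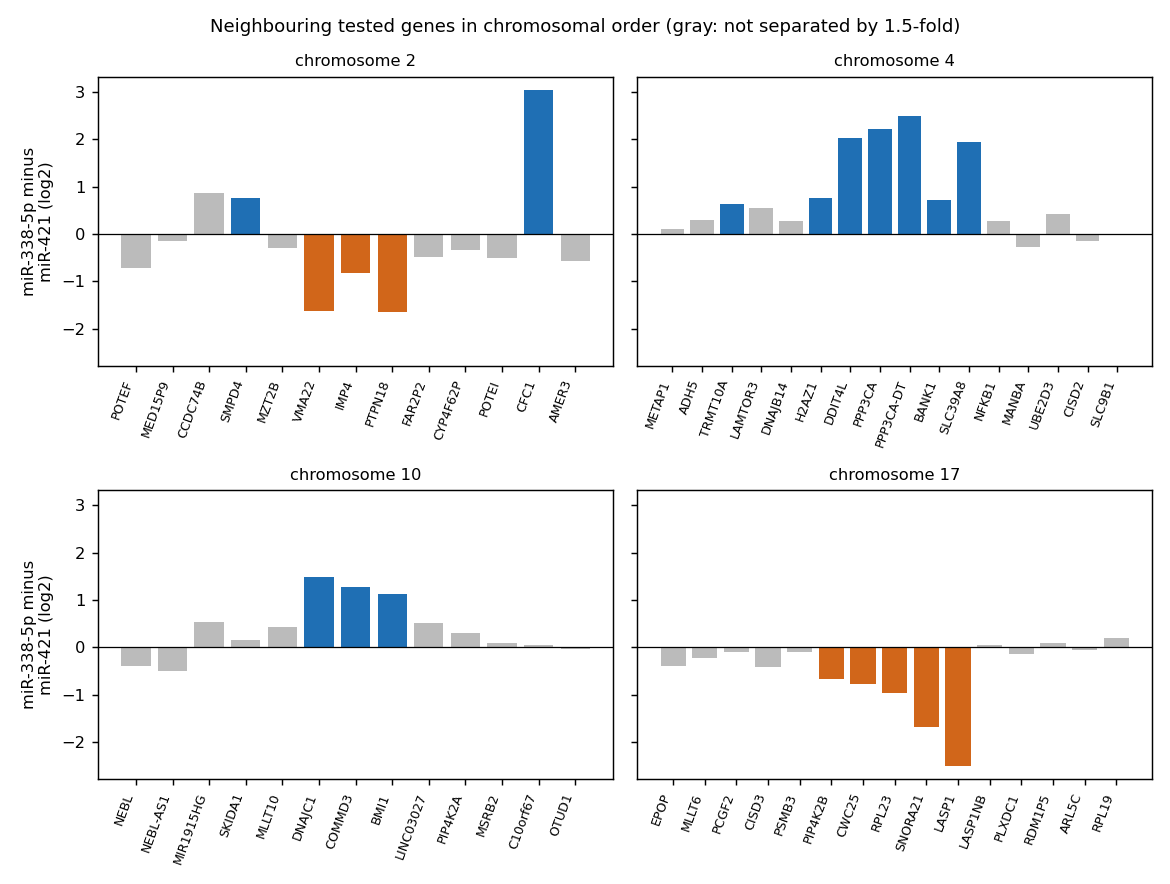
Difference between the lines (miR-338-5p minus miR-421, log2) for neighbouring tested genes in chromosomal order around 4 runs; colored bars are separated genes (blue higher in the miR-338-5p line, orange higher in the miR-421 line) and gray bars are genes not separated by 1.5-fold, and BANK1, dim in the miR-421 line, is drawn at its measured difference. On chromosome 17 the longest bar is LASP1 (-2.51) and the next gene, LASP1NB, is at 0.04, and on chromosome 2 the orange run is followed by CFC1 (3.04) in the opposite direction.

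The other 3 runs lay within gene clusters. On chromosome 16 (chr16:56624933-56660912) MT3, MT2A, MT1L and MT1E followed one another. On chromosome 6 (chr6:31236617-31382906) HLA-C, HLA-B and MICA, a stress ligand of natural killer cells, were higher in the miR-338-5p line, MICA at 0.30, 0.48 and 1.23 against -0.80, -0.54 and -0.33 (1.22; limma adjusted p 0.163). On chromosome 1 (chr1:19593794-19630652) the aldehyde reductases AKR7L (-1.22), AKR7A3 (-1.27) and AKR7A2 (-0.62) were higher in the miR-421 line. AKR7A3 was at 0.33, -0.37 and 0.53 against 1.31, 1.67 and 1.34. The AKR7 probes had no run of over 6 bases in common, but they were not compared with transcripts.

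Some of the largest separated differences belonged to none of these groups. Higher in the miR-338-5p line were CBLN2, a secreted synapse organizer, at -0.55, 1.61 and 1.83 against -2.76, -2.58 and -2.87 (3.70 ± 0.63, SE; limma adjusted p 0.117), and ELF5, an epithelial transcription factor, at -0.93, -0.45 and -1.66 against -3.0, -3.02 and -3.15 (2.04; adjusted p 0.0842). At both probes the miR-421 arrays were tightly grouped and at 12% to 15% of control. Their Cy5 means in that line were low (6.56 and 6.66, log2), where the 50 added by the correction narrows ratio and spread. Over the alternatives the difference ranged from 3.25 to 5.1 for CBLN2 and from 1.29 to 3.22 for ELF5. A second, dimmer ELF5 probe differed by 0.54 (limma adjusted p 0.206), with the miR-421 line at 51.5% of control. Higher in the miR-421 line was PHGR1, a small protein of intestinal epithelium, at 0.17, -1.74 and -1.12 against 2.33, 1.69 and 2.07 (-2.93; adjusted p 0.115).

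WDR70, a nuclear WD-repeat protein, was at 0.69, -0.67 and -0.03 against 3.12, 2.14 and 3.11 (-2.79; limma adjusted p 0.094). GDNF, a neurotrophic factor whose probe lies next to it on chromosome 5, was separated the same way (-1.94; adjusted p 0.163). NCEH1, a cholesteryl ester hydrolase (-2.38), LURAP1L (-2.61) and the antisense transcript PABPC1L2B-AS1 (-2.44) were also higher in the miR-421 line. Their limma adjusted p was 0.0992, 0.176 and 0.13 in this order. LURAP1L was dim in the miR-338-5p line (Cy5 mean 6.36, log2), well above background there on 2 arrays. Over the alternatives its difference ranged from -5.66 to -2.02. A second, dimmer PABPC1L2B-AS1 probe differed by -1.49. CHGA, the granule protein of neuroendocrine cells, was at -0.36, -1.42 and 0.92 against 1.22, 1.82 and 2.82 (-2.24; adjusted p 0.247), the only separated gene of the 19 neuroendocrine and neuronal genes tested. SNORA67, a small nucleolar RNA, was below control on every miR-338-5p array (-1.04, -0.99 and -0.93) and above it on every miR-421 array (1.53, 0.60 and 1.40; -2.16 ± 0.25, SE; adjusted p 0.0688).

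SPINK1, the gene by which the cells are labelled, was far below control on all arrays. Its ratios of -3.04, -2.10 and -6.78 in the miR-338-5p line overlapped those of -7.01, -6.68 and -6.15 in the miR-421 line, and the difference of 2.64 did not pass (limma adjusted p 0.399). Without miR-338-5p replicate 3 it was 4.05 (adjusted p 0.108), and without replicate 2 it was 1.71. AATK, the host gene of miR-338, differed by 0.07 (adjusted p 0.965), and the literature targets of miR-421 ATM and CBX7 by -0.01 and 0.22 (adjusted p 0.994 and 0.749), all with overlapping arrays. FTX, the host transcript of miR-421, was not tested, as its probes did not pass the filter on dim signals.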

How the data were processed

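Total RNA of the control line (Cy3) and of each miRNA line (Cy5) was poly(A)-tailed, labelled with oligo-dT priming and hybridised to 6 Agilent 2-colour arrays, all on 1 slide, per the labels' protocols. The deposited intensity values are spot means and local background medians, not normalized, read by the authors with Feature Extraction 11.5.1.1, per the file headers. The deposited log10 ratios (Cy5 to Cy3) come from that software per the file headers, and the authors' deposited series table holds log2 ratios whose normalization is not given in the sources used here. Both served as alternatives.

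From the intensities, background was corrected by normexp (offset 50) and each array normalized by loess, with outlier spots left out and spots of a probe averaged. Kept were probes that 3 or more of the 6 arrays found well above background in Cy3 or Cy5 (27497 of 58201; 27492 could be tested). R 4.3.3 and limma 3.58.1 fitted a mean per line to all 6 arrays, and the difference was tested with eBayes (prior degrees of freedom 2.05), two-sided, with Benjamini-Hochberg adjustment over probes. The fit was tested on simulated data. A gene was represented by its brightest probe. Whether 1 control culture supplied every array is not stated, and a dye bias that all arrays have in common drops out of the difference.

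Named are all probes past the threshold, the 10 largest separated genes per direction with an unadjusted p under 0.05, up to 6 separated members per direction of each list described, the extreme families, the genes in runs and on chromosome 2 around PTPN18, and SPINK1, EZH2, KRT8, KRT18, AATK, FTX, SMAD4, ATM and CBX7. LOC, LINC and clone names were left out of the 10 largest. List members named with overlapping arrays were chosen after their values were seen. Members, lists and this rule were chosen with earlier results of these data known. Alternatives covered background, normalization, the authors' values, filters, outlier spots, Cy5 alone, leaving out each array, a trended variance, the replicate number as a block and the mean of a gene's probes. Precision is limited by the number of arrays. Symbols were updated through RefSeq accessions (19852 probes matched, 1778 renamed).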

Additional observations from a re-analysis of the deposited data

Results flagged for a closer look

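Limma's test found a difference between the lines at 13 probes, given here as miR-338-5p minus miR-421 on the log2 scale. CFC1 (3.04), PPP3CA (2.21) and COMMD3 (1.28) were higher in the miR-338-5p line. SOD3 (-2.27), PTPN18 (-2.34), VMA22 (-1.63), MAP7D1 (-1.18), KRT83 (-1.28), KRT8 (-0.96), keratin 8 pseudogenes 15 (-1.23), 44 (-1.22) and 48 (-1.05) and an unnamed probe on chromosome 7 (-1.03) were higher in the miR-421 line.

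EPHA3 (2.71) and SNORA67 (-2.16) lay on opposite sides of control in the lines on all 6 arrays. Limma's test of their difference did not pass (adjusted p 0.117 and 0.0688).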

How the results depend on the processing

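None of the 13 probes changed sign in any of the alternatives run. Each lost the threshold in some, and all but CFC1 and SOD3 lost it in most (limma adjusted p up to 0.442). CFC1 passed in 11 of 18, with 2.93 to 4.59, and SOD3 in 10 of 18. COMMD3, PPP3CA, PTPN18 and VMA22 each passed in 7 of 18, and MAP7D1, KRT83 and the unnamed probe in 6 of 18. The KRT8 probe passed in 4 of 18, and its pseudogene probes each in 5 or 6 of 17. The number of probes past the threshold was 46 without background correction, 2 both with median centring and with the software's ratio, 6 in the authors' table, 20 with a filter on all 6 arrays, 43 in Cy5 alone, 89 with a trended and robust variance, 20 with the mean of a gene's probes and 0 to 4 with any 1 array left out. The share higher in the miR-421 line (76.9%) became 54.3%, 50%, 0%, 33.3%, 70%, 67.4%, 60.7% and 65% in these settings in this order, the arrays left out apart. It was 36.4% with the local background subtracted and 63.6% without the filter. The 13 probes all passed without background correction, with a filter on all 6 arrays and with outlier spots kept. In Cy5 alone and with a trended and robust variance 11 of them passed, and without the filter 8. With the local background subtracted 4 of the 13 passed, with median centring 2 and with the software's ratio 1. Separated genes higher in the miR-338-5p line (484) became 835 without background correction, 1121 with subtraction, 280 under median centring, 1121 with the software's ratio, 1068 in the authors' table and 539 to 897 with any 1 array left out. Those higher in the miR-421 line (441) became 973 with subtraction, 770 under median centring, 1113 with the software's ratio, 1098 in the authors' table, 720 in Cy5 alone and 421 to 739 with any 1 array left out. The cause of these changes was not tested.

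The replicate number as a block, over the 4 arrays that share numbers 1 and 2, gave 0 probes (on fewer arrays) and 1282 and 956 separated genes. Same-numbered arrays deviated with a correlation of -0.17, so the numbers gave no sign of pairing. Of 1037 list medians under alternatives 97 moved by more than the spread of arrays. Single genes run under the alternatives were the probes past the threshold, the largest separated genes and those named by the labels or literature; list members were run through their lists. Among the single genes, signs turned for 5 whose differences lay near 0. CBX7 was at -0.13 with the block. EZH2 ranged from -0.046 to 0.59 with any 1 array left out. SMAD4 was at -0.086 under median centring and ranged from -0.41 to 0.22 with any 1 array left out. AATK was at -0.021 under median centring, -0.0091 with the software's ratio, -0.17 in the authors' table and -0.072 with the mean of probes, and ranged from -0.30 to 0.41 with any 1 array left out. ATM was at 0.026 without background correction and ranged from -0.18 to 0.23 with any 1 array left out.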

Other observations

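The complement of each seed was looked for within the tested 60-base probes, as a description of the letters there and not of whole transcripts. The letters ATATTGT, which pair with the miR-338-5p seed, were in 140 probes with a median ratio of -0.02 in the miR-338-5p line and -0.07 in the miR-421 line. The letters CTGTTGA, which pair with the miR-421 seed, were in 176 probes with medians of 0.00 in both lines. The median difference of these sets was 0.05 and 0.03, against 0.01 over all probes.

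Among gene families by symbol, genes whose symbols start with GALNT, enzymes that start mucin-type sugar chains and the antisense RNA GALNT9-AS1, had the lowest median after the metallothioneins (-0.36 over 12 genes), led by GALNT18 (-1.06; limma adjusted p 0.0738). The MMP symbols, matrix metalloproteinases and the noncoding MMP25-AS1 and MMP24OS, had a median of -0.28 over 12 genes, with MMP15 at -0.75 and MMP28 at -0.65. Their Cy3 signal differed by -0.74 at MMP28, -0.91 at MMP17 and -0.71 at MMP25-AS1, and by -0.07 to 0.07 at the rest. The part of the control channel was not tested. At the other end, the exosome subunits of the EXOSC family, which trim and degrade RNA, had a median of 0.37 over 10 genes. None of these families had a member past the adjusted test.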
